A study of Mus musculus with 6 samples.

Results

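The uterus of ovariectomised mice 6 h after estradiol was compared here with the uterus of mice given vehicle, gene by gene. The comparison used 2 of the 6 arrays of the series, the array labelled 6 h and the array labelled 0 h, which is the vehicle control. All genes that the array annotation names by a single symbol were taken, 8251 in all, and 6562 of them were measured, meaning that their signal reached a floor of 142.8 on at least 1 of the 6 arrays. Regulators, receptors, transporters and genes with lower signal are described; the genes of ribosome, protein, sterol and DNA synthesis were counted with all genes but are not listed.

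Both groups were C57BL/6 females aged 10 to 11 weeks that had been ovariectomised and were killed 7 days later. The treated mice received 0.05 µg of estradiol under the skin 6 h before they were killed, and the control mice received vehicle 24 h before. Uteri were pooled before RNA was extracted, and 20 µg of total RNA of each pool was labelled and hybridised to 1 Affymetrix U74Av2 array, on which a gene is read by 1 or more sets of short oligonucleotide probes. The labels mention 10 mice without saying whether that is per group. Each group is therefore a single measurement of a pool, with no replicate, no error and no test, and every difference below compares these 2 arrays. The controls were killed at another time after injection than the treated mice, so estradiol and the time since injection cannot be told apart at 6 h, and the sources used here do not give the clock time of collection.

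Estradiol acts in the uterus mainly through estrogen receptor alpha, a ligand-activated transcription factor present in epithelium, stroma and muscle. The bound receptor switches genes on and off at DNA, directly or through other factors, and also sets off growth factor signals between cell layers, such as IGF-I made by stroma and read by epithelium. Within hours the tissue takes up fluid, its vessels widen and become leaky and its cells enlarge, and the epithelium enters the cell cycle later. The transcription factors, surface receptors and carriers that change in this interval set which signals and nutrients the tissue can use afterwards.

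Signals are given as MAS5 values on a linear scale, and a ratio is the 6 h signal over the vehicle signal after values under the floor were raised to it. Where the lower of the 2 signals lay under the floor, the fold is a lower bound and is written as at least that size. In bulk tissue, fewer cells of a type and less RNA per cell cannot be told apart. The 5 arrays other than the 1 labelled 3 h had Spearman correlations of 0.929 to 0.968 in their 10 pairs, while the array labelled 3 h stood apart at 0.843 to 0.857. That array is not part of the comparison; without it in the choice of floor and probe set, 412 genes were at least 2-fold higher and 547 lower. Among reference genes, Tbp was at 337 and 356, Rplp0 at 30584 and 27300.4 and B2m at 7448 and 5042, whereas Hprt was at 1081 and 1885 and Actb at 2080.2 and 1033, 2.01-fold lower. Actb was at 646 on the 1 h array, also under its vehicle signal.

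At 6 h, 416 genes (6.34% of those measured) were at least 2-fold higher than on the vehicle array and 548 (8.35%) were at least 2-fold lower. Of these, 60 of the higher and 108 of the lower are known only as bounds. At 3-fold or more, 118 genes were higher and 144 lower, and at 4-fold or more 58 and 58. Most genes moved little, since 4393 lay within 1.5-fold of vehicle. The larger direction was another under a different scaling: after scaling to a shared median the counts were 497 higher and 444 lower, so that 52.8% of the calls were higher instead of 43.2%. On the 1 h array, which had the shortest time after estradiol, 56 genes were at least 2-fold higher and 23 lower than on the vehicle array. The vehicle mice were killed 24 h after injection, so these 2 arrays also differ in that time. For 180 of the called genes another probe set was measured, which had the same sign for 143. It moved at least 1.5-fold in the same direction for 93 and in the opposite direction for 1.

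**Figure D1:**
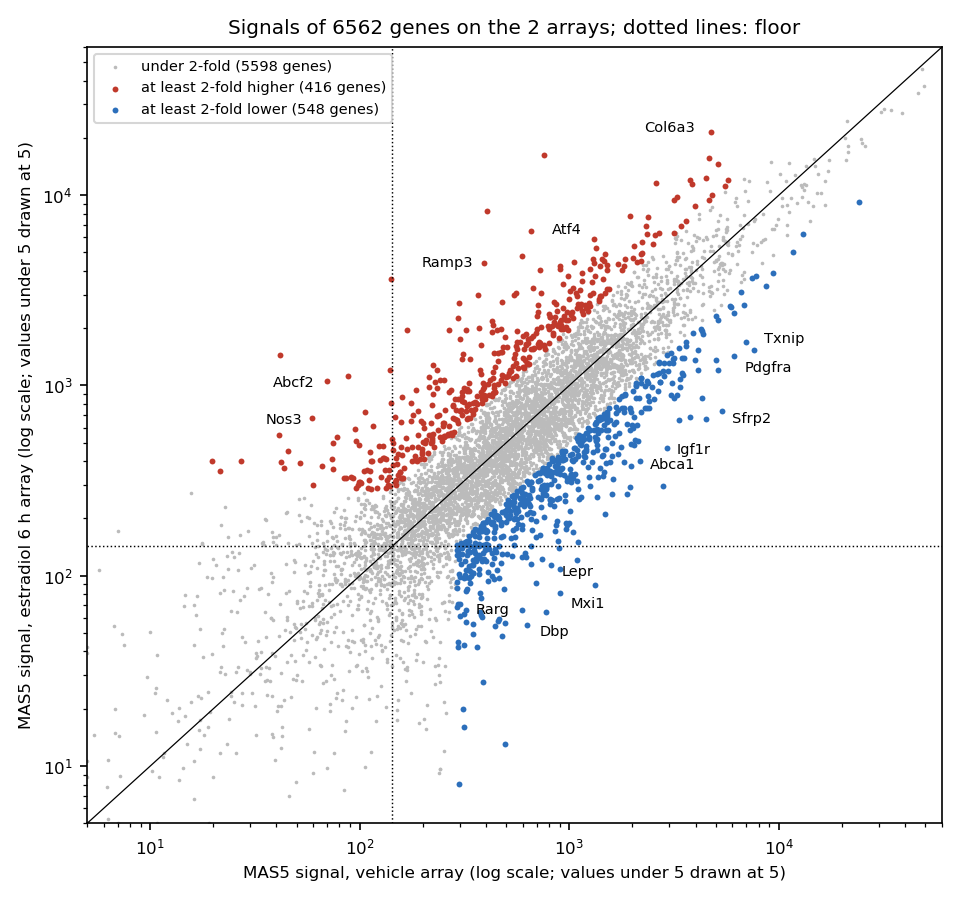
Signal of each of the 6562 measured genes on the vehicle array (x axis) and on the estradiol 6 h array (y axis), both on log scales, with values under 5 drawn at 5. Red and blue points are the 416 genes at least 2-fold higher and the 548 at least 2-fold lower after flooring, the diagonal marks equal signal and the dotted lines mark the floor; genes such as Abcf2 and Nos3 lie left of the vertical line, so their folds are bounds.

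Many of the differences had the same direction between 2 other arrays. These entered the comparison only through the floor, the choice of probe set and the choice of measured genes. They set other times against each other and are not a repeat of 6 h against vehicle. On the 12 h array against the 1 h array, 332 of the 416 genes higher at 6 h (79.8%) were at least 1.5-fold higher and 15 were lower. Over all measured genes 15.5% were higher in that contrast. Of the 548 genes lower at 6 h, 399 (72.8%) were at least 1.5-fold lower at 12 h than at 1 h, against 17.7% of all measured genes, and 8 were higher. These shares come from separate pools and share no control array with the 6 h comparison.

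Gene families differed in how many members lay past 2-fold, and each count below is to be read against the 6.34% higher and 8.35% lower over all measured genes, whose median log2 ratio was 0.00. Genes under the floor on both arrays are counted as measured in these shares and in the lists. Over the 6021 genes that reached the floor on at least 1 of the 2 arrays, the median was -0.05.

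**Figure D2:**
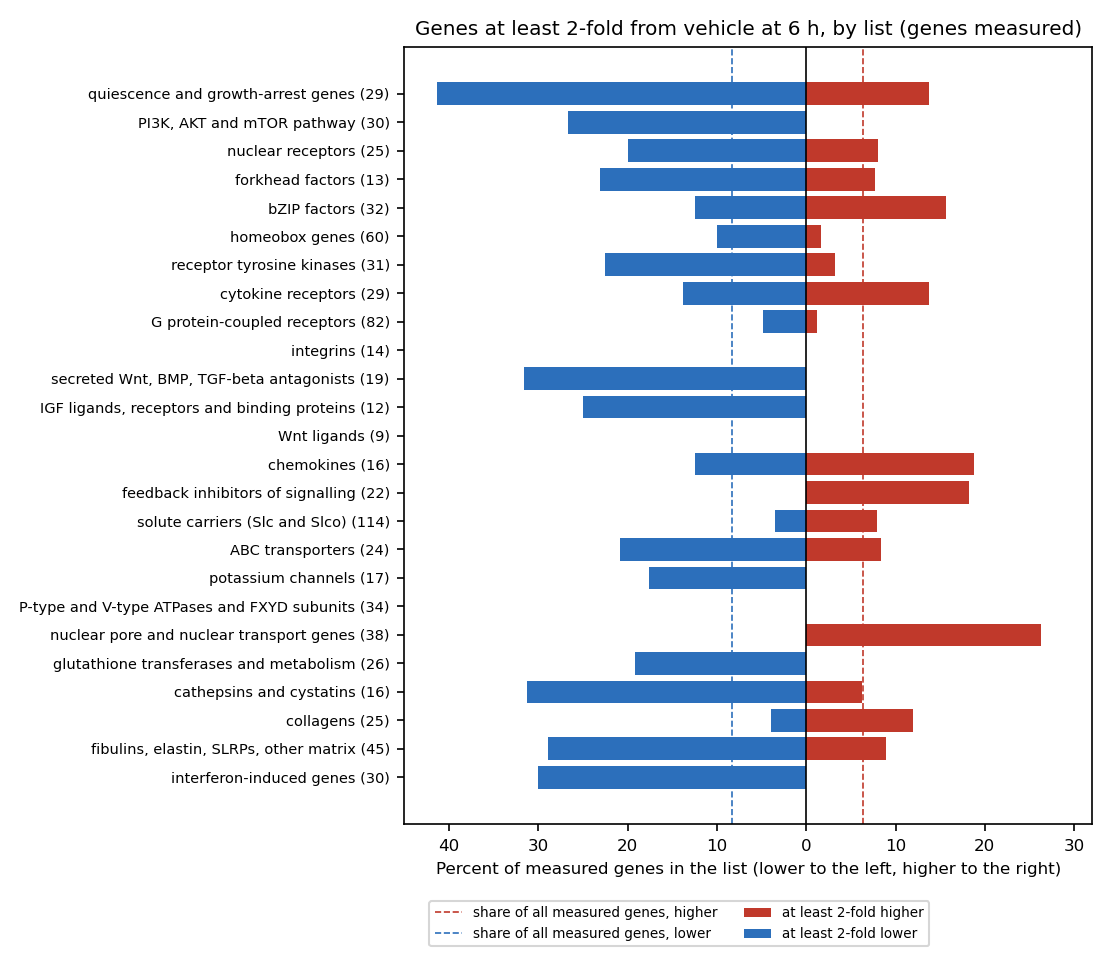
Percent of the measured genes of 25 families or pathways that were at least 2-fold lower (blue, to the left) or higher (red, to the right) at 6 h than on the vehicle array, with the number of measured genes in brackets. Dashed lines mark the shares over all measured genes, 8.35% lower and 6.34% higher; quiescence genes, secreted antagonists, cathepsins and interferon-induced genes reach furthest left and nuclear transport genes furthest right.

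Among nuclear receptors, the ligand-activated transcription factors to which the estrogen receptors belong, 2 of 25 measured genes were at least 2-fold higher and 5 lower. Pgr, the progesterone receptor and a long-known estrogen target, was at 159.8 on the vehicle array and 285, 869.9, 602 and 281 on the 1, 6, 12 and 24 h arrays. The 6 h array thus held the highest of these 5 signals, 5.44-fold above vehicle. Nr4a1, an orphan receptor of the immediate early class, went from 303 to 747, 2.47-fold higher, and was already at 638 at 1 h. The 5 lower genes were receptors for other ligands. Rarg, a retinoic acid receptor, was at 594 on the vehicle array and 65.8 at 6 h, under the floor, and at 463, 361 and 464 at 1, 12 and 24 h. Of these 5 arrays only the 6 h array had Rarg under the floor, and the fold was at least 4.16-fold lower. Thra, a thyroid hormone receptor, went from 2404 to 761, 3.16-fold lower, its other probe set giving a log2 ratio of -0.83. Nr1h3, the oxysterol receptor LXR alpha, went from 407 to 158, 2.57-fold lower. The heme-binding repressors Nr1d1 and Nr1d2 are described with the clock genes. Esr1, the estrogen receptor itself, stood at 527 and 550.4 by its brightest probe set, while the other probe set gave a log2 ratio of -0.77; Esr2 stayed under the floor on all 6 arrays.

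Of 24 measured coregulators, which receptors recruit to DNA, 3 were at least 2-fold higher and 1 lower. Prmt1, an arginine methyltransferase that marks histones and RNA-binding proteins, went from 1276 to 3496, 2.74-fold higher. Carm1, a related methyltransferase that works with p160 coactivators, went from 754 to 1624, 2.16-fold higher. Pprc1, a coactivator of the PGC-1 family tied to mitochondrial gene expression, went from 142 to 524, at least 3.67-fold higher. Cited2, which competes for the coactivators CBP and p300, went from 732 to 229, 3.20-fold lower. The p160 coactivator genes themselves were close to vehicle, with Ncoa1 at 314 and 292 and Ncoa3 at 201 and 209, as was the corepressor gene Nrip1 at 557 and 599.

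The bZIP factors, which bind DNA as leucine-zipper dimers, were the transcription factor family with the most higher members, 5 of 32 measured genes, beside 4 lower. Atf4, a factor of the amino acid and unfolded protein responses, was at 1309 on the vehicle array and 1301, 5914, 3072 and 1435 on the 1, 6, 12 and 24 h arrays. Its 1 h and 24 h signals were near vehicle, and the 6 h signal was 4.52-fold higher. Atf5, a related stress factor, followed with 1305 and 4421, 3.39-fold higher, and was at 4883 at 12 h. Xbp1, the factor spliced in the unfolded protein response, went from 1474 to 3072, 2.08-fold higher. Fos and Cebpb, both early response genes, were at 883 and 2425 at 6 h against 364 and 1026 on the vehicle array, but had been higher still at 1 h, at 1757 and 2854. Against vehicle and 1 h averaged, 2 bZIP genes were higher and 4 lower.

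Of the 4 lower bZIP genes, Bach1, a heme-regulated repressor of antioxidant genes, went from 1133 to 259, 4.38-fold lower by its brightest probe set, against a log2 ratio of -0.15 by the other. Jun, the AP-1 partner of Fos, was at 845 on the vehicle array, 1488 at 1 h and 403 at 6 h, so it stood above vehicle at 1 h and 2.09-fold below it at 6 h. Dbp and Tef are PAR-domain factors of clock output.

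Klf4, a Krueppel-like factor of epithelial differentiation, went from 975 to 2437, 2.50-fold higher and was at 2104 at 1 h. Hand1, a bHLH factor of mesoderm, went from 189.8 to 552, 2.91-fold higher, and Twist2, a bHLH factor of mesenchyme, from 2201 to 4887, 2.22-fold higher. Bcl3, a nuclear IkappaB protein, stood at 87.9 on the vehicle array and 90.5 at 1 h, both under the floor, and at 1114 at 6 h, at least 7.80-fold higher, whereas no other of 12 NF-kappaB and IkappaB genes reached 2-fold. Tfdp1, the DNA-binding partner of E2F factors, went from 1042 to 3269.9, 3.14-fold higher, with the other probe set at a log2 ratio of 1.38. Foxk2 and Prrx2 were the only higher members among 13 forkhead and 60 homeobox genes, at 2.40-fold and 2.11-fold. None of 15 ETS factors reached 2-fold in either direction.

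Of 60 homeobox genes 6 were lower, of 16 Sox and HMG-box genes 4, of 28 genes of the GATA, RUNX, TBX, PAX, TEAD, NFI and MEF2 families 4, and of 91 zinc finger protein genes 5. The homeobox share (10.0%) was near and the zinc finger share (5.49%) under that over all measured genes, 8.35%. Tgif1, a homeobox corepressor of TGF-beta and retinoid signals, went from 1989 to 618, 3.22-fold lower. Meis2, a cofactor of Hox proteins, went from 372 to 146, 2.54-fold lower and Hoxd11, a posterior patterning gene, from 858 to 376, 2.28-fold lower. Sox17, a factor of endothelium and endometrial epithelium, went from 3517 to 1389, 2.53-fold lower and Sox4 from 3112 to 1382, 2.25-fold lower, with their other probe sets at log2 ratios of -0.97 and -1.95. Wt1, a factor of stromal mesenchyme, went from 971 to 317, 3.07-fold lower. Zbtb20, a zinc finger repressor, went from 1352 to 259, 5.23-fold lower, the most of the 91 genes of its list. Against vehicle and 1 h averaged, 2 Sox and HMG-box genes were lower.

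The list of 36 corepressors and histone deacetylases had 2 higher and 3 lower, 5.56% and 8.33%, near the shares over all measured genes. Hdac5, a histone deacetylase that shuttles out of the nucleus on kinase signals, went from 2093 to 618, 3.39-fold lower. Ezh1, a histone methyltransferase of resting cells, went from 1288 to 394, 3.27-fold lower, and Tle1, a Groucho corepressor, from 827 to 403, 2.05-fold lower. Its relative Tle3 went the other way, from 1247 to 2725, 2.18-fold higher, as did Nab2, a corepressor of Egr factors, from 839.9 to 1850.4, 2.20-fold higher. Outside that list, Smarca2, the ATPase of a SWI/SNF remodelling complex, went from 1006 to 218, 4.60-fold lower.

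The Id proteins, which lack a DNA-binding region and block bHLH factors, were listed with the bHLH factors, 40 genes in all, of which 2 were higher and 5 lower. Id2 was at 3076 on the vehicle array and 2861, 1036, 1869.8 and 1556 on the 1, 6, 12 and 24 h arrays. Id3 was at 1948, 1747, 583, 762 and 695 on the same arrays. Both were at their lowest at 6 h, 2.97-fold and 3.34-fold under vehicle, and neither was back at the vehicle signal by 24 h. Mitf and Msc, a melanocyte and a mesodermal bHLH factor, and Scx, a tendon factor, were lower as well, by at least 2.29-fold, 2.16-fold and 2.09-fold.

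Genes of quiescence and growth arrest had the largest share of lower members of any list in the plot of families: of 29 measured, 12 were at least 2-fold lower and 4 higher, with a median log2 ratio of -0.39. Mxi1 and Mxd4 encode partners of Max that repress the targets of Myc. Mxi1 was at 906 on the vehicle array and 851, 80.8, 239 and 594 on the 1, 6, 12 and 24 h arrays. Mxd4 was at 1039, 859, 169.8, 398 and 758. Among these 5 arrays both were lowest at 6 h, at least 6.34-fold and 6.12-fold under vehicle, while Myc itself went from 215 to 426, under 2-fold higher. Foxo3, a forkhead factor that is inactivated by AKT and drives arrest genes, was at 1755, 1641, 476, 729.7 and 1075, 3.69-fold lower at 6 h. Cdkn1c and Cdkn2d, inhibitors of cyclin-dependent kinases, went from 2134 to 509, 4.20-fold lower, and from 314 to 62.7, at least 2.20-fold lower. Rbl2, the pocket protein of resting cells, went from 323 to 56.8, at least 2.26-fold lower, and Pdk4, a kinase that shuts off pyruvate oxidation, from 428 to 186, 2.30-fold lower. Klf9, a Krueppel-like factor that partners the progesterone receptor, went from 1221 to 565, 2.16-fold lower, with the other probe set at -1.46 on the log2 scale. Txnip, an inhibitor of thioredoxin and of glucose uptake, went from 7569 to 1541, 4.91-fold lower by the brightest of its probe sets, against a log2 ratio of 0.10 by the other. The log2 ratios of the list ran from -3.21, for a gene not described here, to 4.34. The highest was that of Gadd45g, which is described with the E-box windows, and Klf4, described above, was also higher. The other higher members were Gas6, a ligand of the TAM receptor kinases, from 3148 to 9422, 2.99-fold higher, and Cdkn1a. The probe sets of Cdkn1a disagreed, at log2 ratios of 2.37 and -0.11.

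Of 30 genes of the PI3K, AKT and mTOR pathway, 8 were lower and 0 higher. That count holds Pdk1, a pyruvate dehydrogenase kinase that the list took in by its symbol, and Foxo3 and Sesn1, which are also quiescence genes. Gab1, a docking adaptor for PI3K, and Sesn1, a stress-induced inhibitor of mTOR complex 1, were at 1481 and 1889 on the vehicle array and 212 and 269 at 6 h. Pik3ca and Pik3cd encode catalytic subunits and Pik3r2 a regulatory subunit of PI3K, and they were 2.38-fold, at least 2.25-fold and 2.20-fold lower. Inppl1, the lipid phosphatase SHIP2, went from 1098 to 424, 2.59-fold lower, so genes of both activators and inhibitors of the pathway were on the lower side. Akt1 itself went from 1317 to 2487, under 2-fold higher. Against vehicle and 1 h averaged, 5 of the 30 genes were lower and 1 higher.

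Promoters were searched for 5 short motifs read by the estrogen receptor, AP-1, Myc-type and other bHLH factors, CREB-type factors and forkhead factors. RefSeq promoters of the assembly GRCm38.p6, 250 bases before to 50 after each start, were matched by gene identifier to 5255 measured genes. Of these genes 343 were higher and 439 lower, and both strands were read. A gene was counted when any of its promoters held the motif. The shares given for all promoters count each promoter singly, so they cannot be set directly against the shares of genes. The forkhead motif GTAAACA occurred in 167 of the measured genes (3.18%), in 28 of the lower (6.38%) and in 3 of the higher (0.875%), and in 3.65% of all 32851 promoters in the table. The E-box CACGTG, read by Myc and Max and by clock and other bHLH factors, occurred in 12.0% of measured genes, in 71 of the higher (20.7%) and in 51 of the lower (11.6%). It was in 7.15% of all promoters. The cyclic AMP element TGACGTCA occurred in 3.39% of measured genes, 4.66% of the higher and 2.28% of the lower. The AP-1 motif TGANTCA occurred in 6.91%, 7.00% and 7.74%, and in 7.81% of all promoters. The full palindromic estrogen response element was found in 23 of all promoters, in 1 measured gene and in none that moved 2-fold, which says only that these letters are not in these windows. A match is a description of letters and not a binding site, and these shares carry no test.

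The windows around the forkhead motif are shown for lower genes described in the text, read 5′ to 3′ on the strand of the gene, with the motif or its reverse complement in capitals. Only bases before the start site are printed. They lie at chr19:53329445-53329490 for Mxi1, chr3:96557816-96557862 for Txnip, chr2:128125791-128125837 for Bcl2l11, chr19:23141106-23141152 for Klf9, chr5:8567051-8567090 for Abcb1a, chr3:142559794-142559831 for Gbp3 and chr14:51914132-51914178 for Ndrg2.
Mxi1: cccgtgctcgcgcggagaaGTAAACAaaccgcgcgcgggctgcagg
Txnip: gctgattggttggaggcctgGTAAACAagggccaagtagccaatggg
Bcl2l11: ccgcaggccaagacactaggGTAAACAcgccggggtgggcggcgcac
Klf9: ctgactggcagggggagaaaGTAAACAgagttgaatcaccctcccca
Abcb1a: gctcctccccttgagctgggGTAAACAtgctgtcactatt
Gbp3: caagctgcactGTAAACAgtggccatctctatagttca
Ndrg2: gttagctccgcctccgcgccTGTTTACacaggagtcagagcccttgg
All are on the plus strand of the assembly except Ndrg2, a gene of the NDRG differentiation family that went from 1017 to 310.4, 3.28-fold lower. The windows share the 7 letters of the motif but not the bases around them. Bcl2l11 encodes the cell death protein BIM and went from 1405 to 367, 3.83-fold lower by its brightest probe set, against a log2 ratio of 0.41 by the other.

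The E-box windows of higher genes are shown in the same way, with CACGTG in capitals. They lie at chr13:51846513-51846558 for Gadd45g, chr2:129198578-129198623 for Slc20a1, chr7:44986576-44986621 for Prmt1, chr8:13338501-13338545 for Tfdp1, chr5:129020018-129020063 for Ran and chr10:85185089-85185134 for Cry1.
Gadd45g: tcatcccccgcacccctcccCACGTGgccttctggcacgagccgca
Slc20a1: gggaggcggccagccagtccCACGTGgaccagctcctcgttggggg
Prmt1: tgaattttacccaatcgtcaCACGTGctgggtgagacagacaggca
Tfdp1: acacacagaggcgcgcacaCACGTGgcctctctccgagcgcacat
Ran: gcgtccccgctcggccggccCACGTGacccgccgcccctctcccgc
Cry1: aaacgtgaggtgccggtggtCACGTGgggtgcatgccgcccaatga
Prmt1 and Cry1 lie on the minus strand of the assembly and the others on the plus strand. Gadd45g, a growth arrest and DNA damage gene, was at 407 on the vehicle array, 9583 at 1 h and 8211 at 6 h, the only one of these 6 genes with its highest signal at 1 h among the vehicle, 1, 6, 12 and 24 h arrays. CACGTG reads the same on both strands, as does TGACGTCA. Cry1 is also 1 of the 3 higher genes with the forkhead motif. Mxd4 and Abca1, both lower, are among the 51 lower genes with CACGTG, so the printed windows are not a full split by direction.

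**Figure D3:**
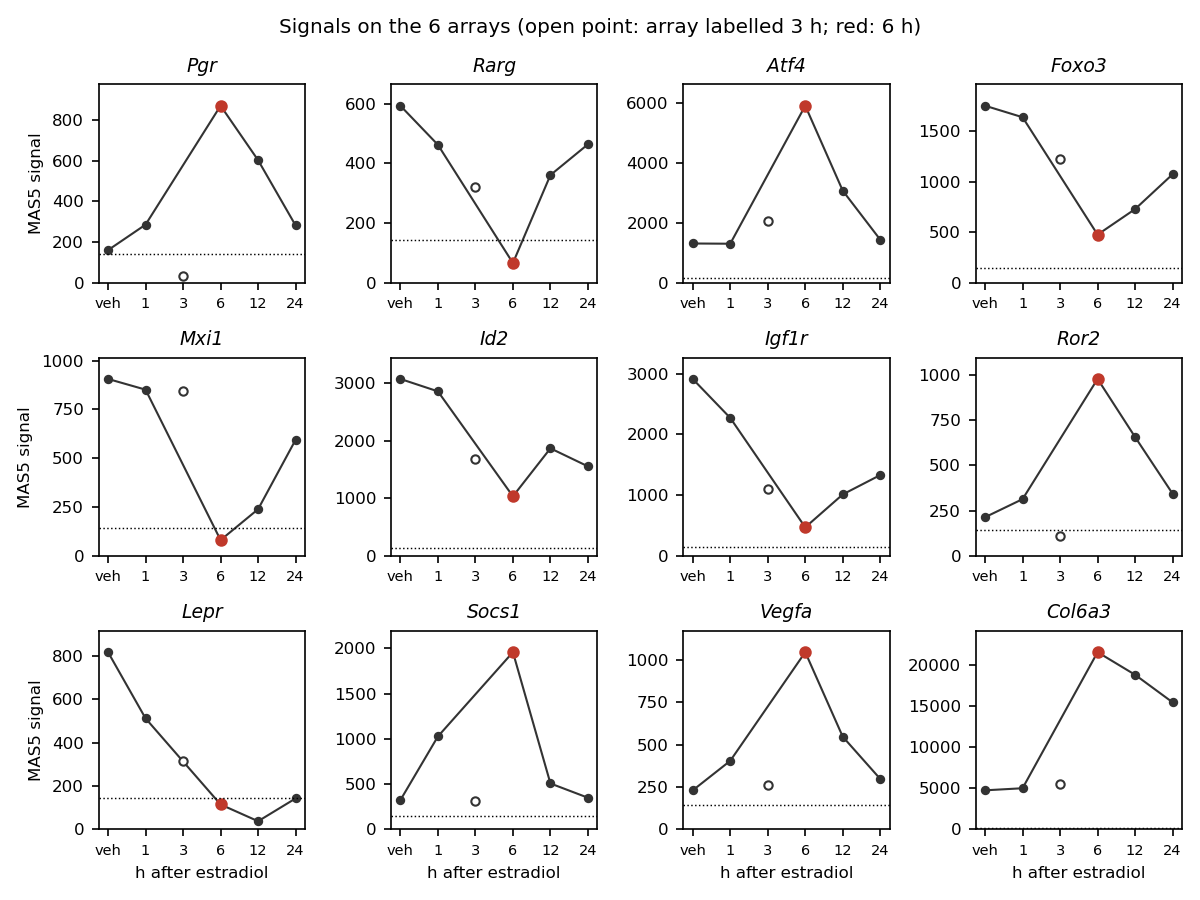
Signals of 12 regulators, receptors and other genes on the arrays for vehicle and for 1, 3, 6, 12 and 24 h after estradiol (x axis; h, not to scale), each on its own linear axis from 0. Red points mark 6 h, the open point is the array labelled 3 h, which stood apart from the rest and is not joined to the line, and the dotted line marks the floor; Pgr, Atf4, Ror2, Socs1, Vegfa and Col6a3 have their highest and Rarg, Foxo3, Mxi1, Id2 and Igf1r their lowest value at 6 h, whereas Lepr is lower still at 12 h.

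Receptor tyrosine kinases carry growth factor signals into the cell. Of 31 measured, 7 were at least 2-fold lower and 1 higher, and the median log2 ratio was -0.51. Igf1r, the receptor of IGF-I, was at 2912 on the vehicle array and 2271, 469.7, 1012 and 1330.2 on the 1, 6, 12 and 24 h arrays. The 6 h signal was the lowest of these and 6.20-fold under vehicle. Pdgfra, the stromal receptor of PDGF-A, went from 6119 to 1431, 4.27-fold lower by its brightest probe set, while the other probe set stood at a log2 ratio of -0.29. Ddr2, a receptor for fibrillar collagen, went from 1881 to 625, 3.01-fold lower. Erbb3, a partner of the EGF receptor family without strong kinase activity, went from 1013 to 339, 2.99-fold lower. Ptk7, Tyro3 and Tek, which act in planar polarity, clearance of dying cells and angiopoietin signalling, were 2.34-fold, 2.17-fold and at least 2.15-fold lower. The EGF receptor gene Egfr stood at 317 and 286.

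Ror2, a receptor for Wnt5a, was the higher gene. It was at 213 on the vehicle array and 313, 977, 656 and 343 on the 1, 6, 12 and 24 h arrays, and its other probe set gave a log2 ratio of 3.18. Both probe sets of Ror2 therefore lay more than 4-fold above vehicle at 6 h. Wnt5a went from 395 to 519.8, and none of the 9 measured Wnt ligands reached 2-fold. The Frizzled receptors Fzd2 and Fzd6 moved opposite to Ror2, from 1431 to 424, 3.37-fold lower, and from 382 to 120.0, at least 2.68-fold lower.

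Cytokine receptors were split: 29 were measured, 4 were at least 2-fold higher and 4 were lower. Il4ra, shared by the receptors of IL-4 and IL-13, went from 707 to 2429, 3.44-fold higher by its brightest probe set, with the other at a log2 ratio of 0.00 because it lay under the floor on both arrays. Il1r2, a decoy that binds IL-1 without signalling, went from 123 to 481, at least 3.37-fold higher, with the other probe set at 1.87. Il17ra, the IL-17 receptor, went from 634 to 1677, 2.65-fold higher, and Csf3r, the G-CSF receptor of neutrophils, from 631 to 1312, 2.08-fold higher. Of 12 granulocyte markers measured, Csf3r alone was 2-fold higher, but 7 lay under the floor on both arrays and could not show a difference. The defining granule and calprotectin genes Mpo and S100a9 lay under the floor on both arrays, at 17.2 and 17.5 and at 16.7 and 77.9. Among the lower genes, Lepr, the leptin receptor, was at 818 on the vehicle array and 512, 114, 36.4 and 142 on the 1, 6, 12 and 24 h arrays. Its signal was under the floor at 6 h and lower still at 12 h, and the fold at 6 h was at least 5.73-fold. Il15ra, Ifnar2 and Lifr, which bind IL-15, type I interferon and LIF, were 2.75-fold, 2.24-fold and 2.06-fold lower.

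G protein-coupled receptors were mostly under 2-fold: 1 of 82 measured genes was at least 2-fold higher and 4 were lower, against 6.34% and 8.35% of all genes. Of the 82, 13 lay under the floor on both arrays. Ackr3, a scavenging receptor for CXCL12, went from 256 to 743, 2.90-fold higher and was at 671 at 1 h. Ptger4, the EP4 receptor of prostaglandin E2, went from 957 to 246, 3.89-fold lower. F2r, the thrombin receptor, went from 932 to 428, 2.17-fold lower. The 14 measured integrins, the receptors for matrix, held no gene at 2-fold in either direction. Acvr2b, an activin receptor, went from 1021 to 327, 3.12-fold lower and was the only one of 9 TGF-beta family receptors at 2-fold, while Inhbb, the activin and inhibin beta B subunit, went from 141 to 3604.

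The adrenomedullin system, a vasodilator peptide and the small membrane proteins that tune its receptor, moved in both directions among its 5 measured genes. Adm, the peptide gene, was at 186 on the vehicle array and 1067, 947, 473 and 212 on the 1, 6, 12 and 24 h arrays. Ramp3 was at 393, 879, 4402, 2124 and 1269. Adm was thus highest at 1 h and Ramp3 at 6 h, at 5.10-fold and 11.2-fold above vehicle at 6 h. Ramp1, which turns the shared receptor toward CGRP, went from 1358 to 484, 2.80-fold lower, and Ramp2, the other adrenomedullin partner, went from 1772 to 2869, under 2-fold.

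**Figure D4:**
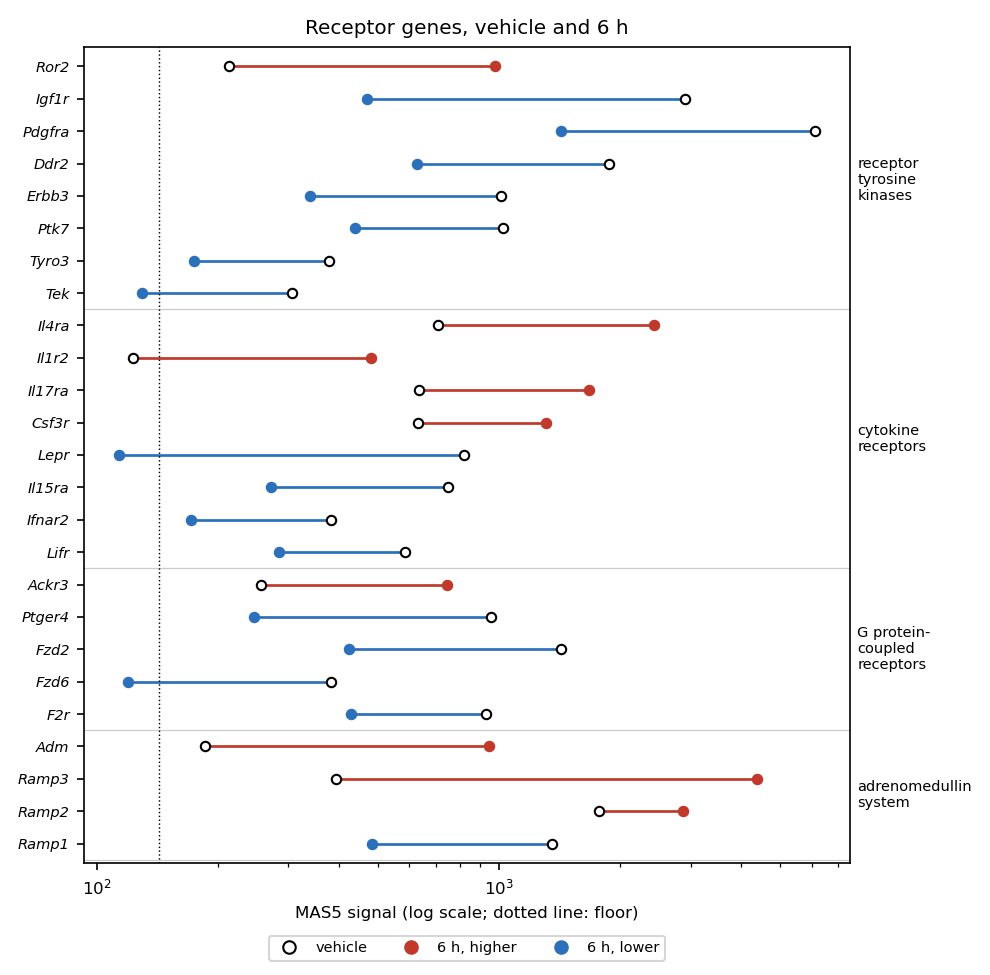
Signals of 25 receptor and adrenomedullin system genes on the vehicle array (open points) and the estradiol 6 h array (red where higher, blue where lower), on a log scale with the floor as a dotted line. All genes drawn except Ramp2 were at least 2-fold apart after flooring; the receptor tyrosine kinases drawn hold 7 lower genes and 1 higher gene, Ror2.

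Vascular and chemotactic ligands were among the higher genes. Vegfa, the main growth and permeability factor of vessels, was at 229 on the vehicle array and 404, 1047, 547 and 297 on the 1, 6, 12 and 24 h arrays, 4.57-fold higher at 6 h. Ccn1, a matrix-bound angiogenic protein, went from 125 to 405, at least 2.84-fold higher, and its relative Ccn4 from 163 to 370.4, 2.27-fold higher, whereas Ccn2, the connective tissue growth factor, went from 748 to 267, 2.80-fold lower and Vegfd, a lymphatic factor, from 407 to 105, at least 2.85-fold lower. Nos3, the endothelial nitric oxide synthase, stood under the floor at 59.0 on the vehicle array and 59.4 at 1 h and at 674 at 6 h, at least 4.72-fold higher. Of 16 chemokines measured, 3 were higher and 2 lower. Ccl11, which attracts eosinophils, went from 191 to 733, 3.85-fold higher, and Ccl7 and Ccl12, which attract monocytes, went from 45.3 to 454, at least 3.18-fold higher, and from 27.2 to 403, at least 2.82-fold higher. Both of these were under the floor on the vehicle array, and with the floor at the 60th percentile 1 chemokine was higher and 2 were lower. Cxcl14 went from 1569 to 397, 3.95-fold lower, and Cxcl12, the homing chemokine of stroma, from 2037 to 681, 2.99-fold lower by its brightest probe set, with the other at a log2 ratio of -0.04.

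Secreted antagonists of Wnt, BMP and TGF-beta signals were lower or under 2-fold: of 19 measured genes 6 were lower and 0 higher, at a median log2 ratio of -0.55. Apcdd1 and Sfrp2, both Wnt inhibitors, were at 2800.4 and 5324 on the vehicle array and 296 and 736 at 6 h. Dkk3, a member of the Dickkopf family, went from 1974 to 721, 2.74-fold lower. Dcn and Bgn, small proteoglycans that bind TGF-beta, went from 23991 to 9206, 2.61-fold lower, and from 6132 to 2411, 2.54-fold lower, and Twsg1, which modulates BMP, from 1407 to 682, 2.06-fold lower. Scaled to a shared median, 5 members were lower and 1 was higher. Several of these genes are also products of stromal fibroblasts, whose markers are given further on.

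The IGF axis had 3 lower and 0 higher of 12 measured genes, with a median log2 ratio of -0.62. Besides Igf1r, Igfbp3, the main carrier of IGF-I, was at 6996 on the vehicle array, 1696 at 6 h and 356 at 12 h, 4.13-fold lower at 6 h, with the other probe set at a log2 ratio of -1.79. Irs2, an insulin receptor substrate, went from 315 to 43.3, at least 2.20-fold lower. Igf1 itself depended on the probe set: the brightest went from 1234 to 1931 and the other from 337 to 3392, a log2 ratio of 3.33.

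Feedback inhibitors of cytokine and kinase signalling were higher in 4 of 22 cases and lower in 0. Socs1, a suppressor of JAK kinases, was at 321 on the vehicle array and 1025, 1958, 505 and 347 on the 1, 6, 12 and 24 h arrays, 6.11-fold higher at 6 h. Socs3, which acts on gp130 receptors, went from 294 to 845, 2.87-fold higher, and Socs2, an inhibitor of growth hormone signals, from 1554 to 3207, 2.06-fold higher. Errfi1, an inhibitor of the EGF receptor, was at 856, 3724 and 2291 on the vehicle, 1 h and 6 h arrays and 2.67-fold higher at 6 h. Socs1, Socs3 and Errfi1 were more than 2-fold above vehicle at 1 h as well, and against vehicle and 1 h averaged 1 gene of the list was 2-fold higher.

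Solute carriers, the main family of membrane transporters, had 9 of 114 measured genes at least 2-fold higher and 4 lower, close to the share of all genes on the higher side and under it on the lower. Slc35b1, which exchanges ATP across the endoplasmic reticulum membrane, was at 981 on the vehicle array, 1419 at 1 h, 3779 at 6 h and 4287 at 12 h, 3.85-fold higher at 6 h. Slc2a1, the basal glucose carrier GLUT1, went from 153 to 435, 2.84-fold higher and stayed at 565 and 623 at 12 and 24 h. Slc7a5, the exchanger that brings leucine and other large amino acids into growing cells, went from 1135 to 2669.7, 2.35-fold higher. Slc20a1, a sodium-phosphate carrier, went from 199 to 638, 3.20-fold higher. The zinc carriers Slc30a5 and Slc39a7 of the secretory pathway, which load and release zinc there, went from 158 to 433, 2.74-fold higher, and from 1404 to 2947, 2.10-fold higher. Slc6a13, a GABA and taurine carrier, went from 323 to 932, 2.88-fold higher, and Slco5a1, an orphan of the organic anion carriers, from 102 to 306, at least 2.14-fold higher. Slc25a5, the mitochondrial ADP/ATP carrier, went from 619 to 1857, 3.0-fold higher by its brightest probe set, with the other at a log2 ratio of 0.20.

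The lower solute carriers handle calcium, fatty acids, steroid sulfates and taurine. Slc8a1, the sodium-calcium exchanger, went from 1595 to 498, 3.20-fold lower. Slc27a1, a fatty acid transport protein, went from 1179.5 to 425, 2.78-fold lower, and Slc10a6, a carrier of sulfated steroids, from 356 to 143, 2.49-fold lower. Slc6a6, the taurine carrier, went from 2981 to 1311, 2.27-fold lower, with the other probe set at a log2 ratio of -0.54. The balance of the family rested on the floor, since with the floor at the 20th percentile 15 solute carriers were higher and 17 lower.

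Most ABC genes were under 2-fold. Abcf2 and Abce1, which carry ABC domains but act on ribosomes and transport nothing across membranes, were the 2 higher genes of 24 measured, from 69.9 to 1052, at least 7.37-fold, and from 711 to 1646, 2.31-fold. Abcf1 and Abcf3, of the same subfamily as Abcf2, had log2 ratios of 0.38 and 0.21. The 5 lower genes encode membrane transporters. Abca1, which hands cholesterol to lipoproteins, was at 2166 on the vehicle array and 2039, 403, 395 and 506 on the 1, 6, 12 and 24 h arrays, 5.38-fold lower at 6 h, with the other probe set at a log2 ratio of -1.07. Abcb1a and Abcg2, drug exporters of vessel and epithelial membranes, went from 441 to 54.2, at least 3.09-fold lower, and from 562 to 199, 2.83-fold lower. Abcc5, an exporter of cyclic nucleotides and other anions, and Abca2, a lipid transporter, were 2.82-fold and 2.10-fold lower.

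Ion channels were lower or under 2-fold. Of 17 potassium channel genes 3 were lower, and of 30 sodium, calcium, chloride and TRP channel genes 4, with none higher in either list. Kcnj8, the pore of the ATP-sensitive channel of vascular smooth muscle, went from 958 to 266, 3.61-fold lower, and Kcnk2, a mechanically gated leak channel, from 561 to 279, 2.01-fold lower. Kcnn1, a calcium-activated channel, was at 455 on the vehicle array and under the floor at 92.2 at 1 h and 57.8 at 6 h, at least 3.19-fold lower at 6 h. Itpr2, a calcium release channel of the endoplasmic reticulum, went from 1355 to 456, 2.97-fold lower, with the other probe set at a log2 ratio of -1.83. Trpc4, a cation channel of the plasma membrane, went from 318 to 98.1, at least 2.23-fold lower, and P2rx6, an ATP-gated channel, from 346 to 55.9, at least 2.42-fold lower. Against vehicle and 1 h averaged, 1 potassium channel gene was lower.

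Water channels were represented by 4 measured genes. Aqp8 went from 218 to 552, 2.54-fold higher, and Aqp1, the channel of vessel endothelium, from 2377 to 1035, 2.30-fold lower, with 1791 at 1 h. None of 34 genes for P-type and V-type ion pumps and their FXYD subunits reached 2-fold. In contrast, 10 of 38 genes of the nuclear pore and nuclear transport were higher and 0 lower, at a median log2 ratio of 0.52. Ran, the GTPase that gives transport its direction, went from 5128 to 14514, 2.83-fold higher, and its exchange factor Rcc1 from 219 to 635, 2.90-fold higher. Rangap1 and Ranbp1, which promote GTP hydrolysis by Ran, were 2.62-fold and 2.73-fold higher. The importins Ipo5, Ipo4, Ipo7, Kpna1 and Kpna2 were 3.40-fold, 2.34-fold, 2.57-fold, 2.26-fold and at least 2.79-fold higher, as was the importin recycling factor Cse1l at 2.07-fold. The nuclear pore proteins proper stayed under 2-fold, with Nup93 and Nup188 highest at log2 ratios of 0.91 and 0.86.

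**Figure D5:**
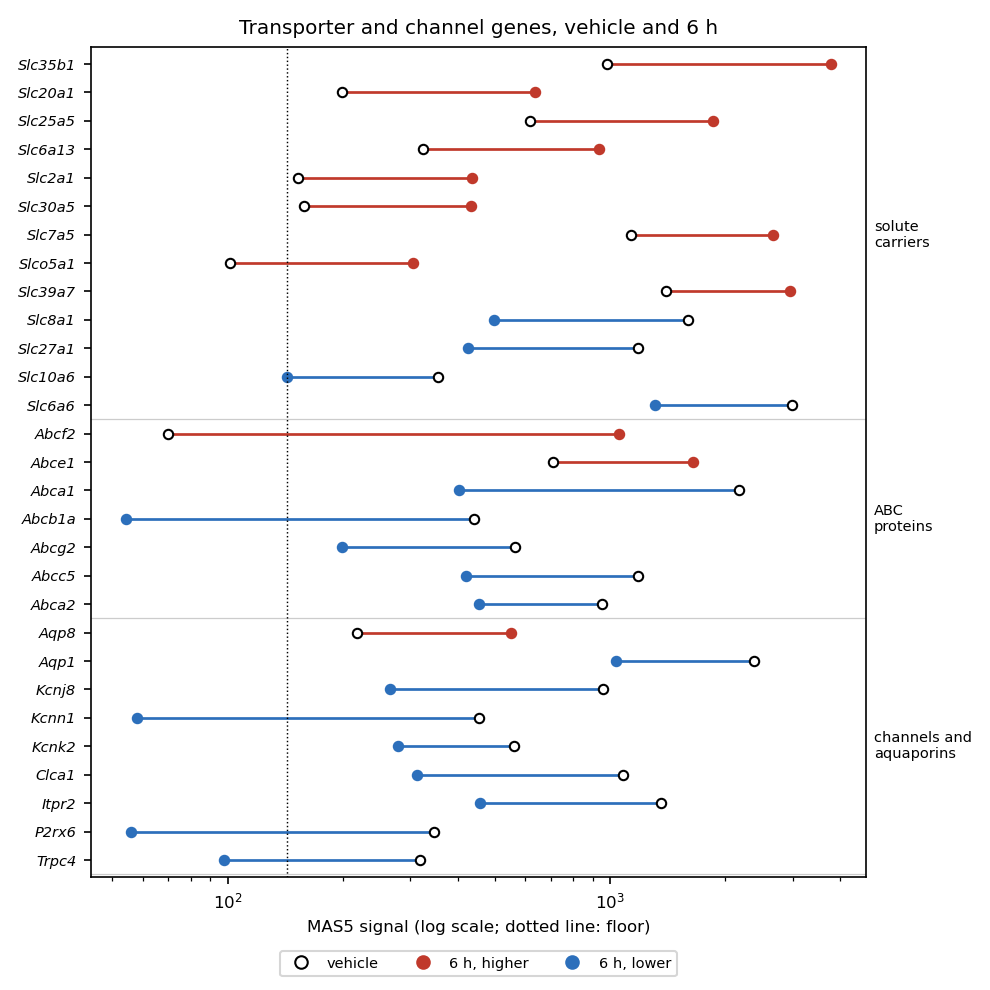
Signals of 29 transporter and channel genes on the vehicle array (open points) and the estradiol 6 h array (red where higher, blue where lower), on a log scale with the floor as a dotted line. The solute carriers drawn hold 9 higher and 4 lower genes, the ABC proteins 2 higher and 5 lower, and all channels but the aquaporin gene Aqp8 are lower.

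Enzymes that make and clear hormones and foreign compounds were on both sides. Aldh1a2, which makes retinoic acid in stroma, was at 300.2 on the vehicle array and 248, 1763, 965 and 500.3 on the 1, 6, 12 and 24 h arrays, 5.87-fold higher at 6 h. Adh1, an alcohol dehydrogenase that oxidises retinol, went from 1467 to 4520.0, 3.08-fold higher. Aldh1a3, another retinal dehydrogenase, went from 354 to 132, at least 2.48-fold lower, and Rarg was lower as given above, so genes of retinoid synthesis and response moved in both directions. Fmo1, a flavin monooxygenase, went from 1603 to 270.3, 5.93-fold lower, Inmt, a methyltransferase of amines, from 2065 to 518, 3.99-fold lower, and Ephx1, the microsomal epoxide hydrolase, from 770.2 to 64.4, at least 5.39-fold lower. Of 15 cytochrome P450 genes 3 were lower, led by Cyp2f2, from 2348 to 759.8, 3.09-fold. Of 26 glutathione transferase and glutathione genes 5 were lower, among them Gstt1, from 1026 to 404, 2.54-fold, and Gstm1, from 11691 to 5015, 2.33-fold, with a log2 ratio of 0.19 by another probe set. None of either list was higher. Hpgd, which inactivates prostaglandins, went from 527 to 158, 3.33-fold lower. Hsd11b2, which protects receptors from glucocorticoid, went from 443 to 921, 2.08-fold higher and was at 2059.5 at 12 h.

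Matrix genes moved in both directions. Col6a3 was at 4721 on the vehicle array and 4973, 21543, 18789 and 15432 on the 1, 6, 12 and 24 h arrays. Col6a2 was at 4656, 4099.9, 15637, 15094 and 16468. These chains of the beaded microfibril collagen were 4.56-fold and 3.36-fold higher at 6 h and stayed high at 24 h, and with Col5a1, 2.34-fold higher, they were the 3 higher of 25 collagens, beside 1 lower. Fbln2 and Eln, of elastic fibres, went from 1439 to 4614, 3.21-fold higher, and from 2571 to 6194, 2.41-fold higher. The list of 45 matrix glycoproteins and their enzymes, which includes these, had 4 higher and 13 lower (28.9%). Tnxb, a tenascin of loose connective tissue, went from 1824 to 398, 4.58-fold lower, with the other probe set at -1.51. Lox, the enzyme that crosslinks collagen and elastin, went from 728 to 164, 4.45-fold lower, Tgfbi, a TGF-beta-induced adhesion protein, from 5022 to 1367, 3.67-fold lower, and Lum, a small proteoglycan of collagen fibrils, from 5896 to 2577, 2.29-fold lower. The laminin chains Lama2 and Lama4 were 2.73-fold and 2.16-fold lower. Mmp11, a stromal metalloproteinase, went from 1082 to 121. Of 16 cathepsin and cystatin genes, 5 were lower and 1 higher, led by Ctsf, from 1259 to 298, 4.23-fold lower, but with both arrays set to the same median 2 were lower.

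Cell contacts changed member by member, with 5 of 33 cadherin, claudin and connexin genes higher and 4 lower, a balance that turned to 6 and 8 with the floor at the 20th percentile and to 3 and 4 with an offset of 100 in place of a floor. Gja1, the gap junction protein connexin 43, was at 1295 on the vehicle array, 2894 at 1 h and 4616 at 6 h, 3.56-fold higher, and Gjb2, connexin 26, went from 477 to 1495, 3.14-fold higher and reached 8301 at 24 h. Dsc2, a desmosomal cadherin, went from 115 to 616, at least 4.31-fold higher. Cldn5, the tight junction claudin of endothelium, went from 1459 to 351, 4.16-fold lower, Tjp1, the junction scaffold ZO-1, from 2374 to 878, 2.70-fold lower, and Cdh16, a cadherin of tubular epithelium, from 547 to 146, 3.75-fold lower. Among 25 keratins 5 were higher and 0 lower. Krt6a was the highest, at a log2 ratio of 4.44 after flooring. The others were Krt6b at 5.49-fold, Krt7, of simple epithelium, at 3.45-fold, Krt13 at 2.74-fold and Krt17 at 2.25-fold. Krt6a and Krt6b joined this list after their values were seen, which raised its higher count. Krt6a and Krt6b are close copies whose probe sets may read each other. Sfn, the 14-3-3 protein of stratified epithelium, went from 724 to 4058, 5.61-fold higher and reached 8869 at 24 h.

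Interferon-induced genes were lower more often than higher. Of 30 measured, 9 were lower and 0 higher, with a median log2 ratio of -0.67. Gbp7, a guanylate-binding GTPase, was at 1114 on the vehicle array and 1085, 253, 204 and 825 on the 1, 6, 12 and 24 h arrays, 4.41-fold lower at 6 h. Gbp3, whose promoter window is printed above, went from 873 to 194, 4.49-fold lower. The guanylate-binding genes are similar in sequence, so their probe sets may overlap in what they read. Ifit3, an antiviral protein, went from 426 to 115, at least 2.99-fold lower, and Irf1, a factor that drives such genes, from 1151 to 509, 2.26-fold lower. Of 24 MHC genes 2 were 2-fold lower and none with both arrays set to the same median. The 26 complement and coagulation genes had 1 higher and 4 lower, with Vwf, the von Willebrand factor of endothelium, going from 623 to 125, at least 4.37-fold lower, Serping1, the C1 inhibitor, from 5135 to 2218, 2.31-fold lower, and Procr, the endothelial protein C receptor, from 272 to 945, 3.47-fold higher. None of 17 macrophage and leukocyte markers reached 2-fold.

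Clock genes, which cycle with the time of day, were compared with this limit in mind, as collection times are not given. Of 16 measured, 4 were lower and 1 higher. Dbp, an output factor, was at 625 on the vehicle array and 347, 55.0, 22.9 and 527 on the 1, 6, 12 and 24 h arrays. Nr1d2 was at 1489, 1219, 393, 245 and 919.7, and Nr1d1 at 754, 556, 301, 295 and 602. All 3 were lower at 6 and 12 h than on the vehicle, 1 h and 24 h arrays. Tef went from 1338 to 509, 2.63-fold lower. Cry1, a core repressor, was 2.21-fold higher at 6 h, at 616 and 1364, and lay below vehicle at 24 h, at 247.

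Other genes among the 40 with the lowest ratios have no family in common. Sun2, a protein of the inner nuclear membrane, went from 3328 to 657, 5.06-fold lower. Usp2, a ubiquitin protease, went from 967 to 189, 5.11-fold lower, and Rin2, an exchange factor for Rab5, from 4282 to 861, 4.97-fold lower. Peg3, an imprinted zinc finger gene, went from 694 to 91.7, at least 4.86-fold lower, with the other probe set at -1.70 on the log2 scale. Islr, a secreted leucine-rich repeat protein of stromal cells, went from 3751 to 683, 5.49-fold lower, Sspn, a part of the dystrophin complex, from 655 to 143, 4.57-fold lower, and Cavin2, a coat protein of caveolae, from 976 to 186, 5.26-fold lower. Among the 40 with the highest ratios outside the families above were Ripor2, an inhibitor of RhoA, from 106 to 723, at least 5.06-fold, and Synpo, an actin-associated protein, from 175 to 809, 4.63-fold.

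Markers were compared to see which tissues the arrays held. Smooth muscle markers were strong and close to vehicle, with Myh11 at 9706 and 6948 and Acta2 at 10350.0 and 8742, and none of 10 at 2-fold. Epithelial markers were present, with Krt8 at 2193 and 1742 and Cdh1 at 654 and 786; of 19, 3 were higher and 1 was lower. Stromal fibroblast markers had 8 of 18 lower and 1 higher at a median log2 ratio of -0.84, and their signals summed to 82316 on the vehicle array and 44862 at 6 h. Several lower matrix genes, antagonists and receptors named above are on that list, among them Sfrp2, Pdgfra, Dcn and Wt1. Endothelial markers had 4 of 14 lower and summed to 14428 and 13084, with Vwf, Cldn5, Sox17 and Tek lower and Eng at 2368 and 4073.

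Markers of tissues outside the uterus also differed between the 2 pools. Pancreatic acinar markers were on both arrays, with 4 of 10 lower at 6 h and a sum of 5847 on the vehicle array against 1825. The protease genes Ctrb1 and Prss2 went from 1943 to 293 and from 494 to a value under the floor. Adipocyte markers had 2 of 12 lower at a median log2 ratio of -0.75, a sum of 15162 against 8329, and Adipoq, the adiponectin gene, at 4283 and 2216. Skeletal muscle markers summed to 5428 and 3799.8, with 1 of 15 lower. Lepr, Abca1 and Slc27a1, which fat also expresses, were lower at 6 h, as was the adipocyte sum. Whether they followed the adipocyte markers across the arrays was not computed, and the part of these tissues in any result above was not tested.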

How the data were processed

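RNA of pooled mouse uteri was measured on Affymetrix U74Av2 arrays, 1 array per time. The deposited values are probe set intensity values on a linear scale that the authors made with MAS5, per the submitters' processing notes; the version, scaling target and detection calls are not given in the sources used here. No depth applies to arrays, and with 1 array per group the precision cannot be estimated. Of 12488 probe sets, 66 controls were left out. The platform annotation gave 1 symbol for 10833 of the other 12422, several for 396 and none for 1193, and 10817 were updated through the RefSeq table of GRCm38.p6.

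Arrays were scaled to a common 2% trimmed mean and signals under the 40th percentile of all signals, 142.8, were raised to it. Where a gene had several probe sets, the brightest by mean log2 signal was used. A gene was called higher or lower at 2-fold or more; no test was possible. Python 3.11.15 with numpy 2.4.6, pandas 2.3.3, scipy 1.17.1 and matplotlib 3.10.9 was used. The ratio and calling steps were tested on simulated data, and the list and motif steps were not. Close copies such as keratin 6, guanylate-binding, glutathione transferase and MHC genes may cross-hybridise, and the array does not separate overlapping genes.

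The genes described and the 88 lists were chosen with earlier results of these data known, so they support nothing by themselves. Some lists were corrected after their values were seen: Krt6a and Krt6b joined the keratins, and members caught only by a shared prefix left the bHLH, MHC and cystatin lists. Named genes were the 40 highest and 40 lowest ratios among genes whose brighter array reached the 60th percentile, up to 6 members of each list at 2-fold or more, all members of lists with at most 25 measured, and fixed receptor and reference genes. Akt1, Cdkn1c, Cdkn2d, Cebpb, Cse1l, Egfr, Eln, Gas6, Ipo4, Ipo7, Jun, Kpna1, Lifr, Ndrg2, Nup188, Nup93, Pdk4, Pik3cd, Pik3r2, Prrx2, Scx, Tyro3 and Xbp1 were named outside that rule, after their values were seen. Alternatives changed the floor, the scaling, the choice of probe set, the reference and the arrays that define a measured gene.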

Additional observations from a re-analysis of the deposited data

Results flagged for a closer look

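Clca1, a secreted regulator of chloride channels in mucous epithelium, was 2-fold or more from vehicle in opposite directions at 6 h and 24 h. Its signal was 1082 on the vehicle array and 1027, 313, 548 and 8056 on the 1, 6, 12 and 24 h arrays. The log2 ratio to vehicle was -1.79 at 6 h and 2.90 at 24 h. With the median of its probe sets the 6 h difference was under 2-fold, still lower than vehicle. Cry1, the clock repressor, had log2 ratios of 1.15 at 6 h and -1.32 at 24 h. Each value rests on 1 array, both ratios use the same vehicle array, and the difference between the times was not tested.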

How the results depend on the processing

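No paired analysis was possible because each group is 1 array. The number of lower genes, 548, moved to 838 with the floor at the 20th percentile and to 308 at the 60th; the higher genes, 416, were 598 and 286. The other alternatives gave 331 to 497 higher and 425 to 548 lower genes, the highest higher count with a common median and the lowest of both with an offset of 100. No direction reversed among the 209 named genes at 2-fold under these alternatives, and the other named genes were not checked for this. A changed floor or offset acts on the same 2 signals of a probe set and cannot by itself reverse a direction. The absence of reversals is therefore no support for the directions. Of 209 named genes at 2-fold, 113 were past it under all 9 alternatives, while 53 were not with the floor at the 60th percentile, 32 not against vehicle and 1 h averaged, 30 not with the offset, 28 not with the median of probe sets, 8 not with a common median, 5 not with quantile normalization and 1 not with the floor at the 20th percentile. Leaving the array labelled 3 h out of the floor and probe set choice was added after seeing the data. Kcnk2 and Lifr missed 2-fold under 5 alternatives and Pik3cd under 4. The counts of the lists were less stable. Of 182 list counts, at least 69 moved with the floor at the 20th percentile and 47 at the 60th. At least 37 moved against vehicle and 1 h averaged, 31 with the offset and 26 with the median of probe sets. A common median moved at least 20 and quantile normalization 8. A list count given without another setting therefore describes the main setting only. The precision of single arrays is unknown, and genes near the floor have only bounds.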

Other observations

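A further 3 lists were written after the values had been seen, so their counts are descriptions. Of 27 measured autophagy genes, 9 were at least 2-fold lower and 0 higher, with a median log2 ratio of -0.66. Of 30 genes of fatty acid oxidation and branched-chain amino acid breakdown, 10 were lower and 1 was higher, with a median of -0.57. Of 23 imprinted genes, 5 were lower and 0 higher, with a median of -0.35. Over all measured genes 8.35% were lower and 6.34% higher.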
